A study of Mus musculus with 24 samples.

Results

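The neural crest is a population of embryonic cells that forms along the border of the neural plate and migrates out of the dorsal neural tube. The genes followed here specify it, namely Sox10, Sox9, Foxd3, Tfap2a, Tfap2b, Pax3, Pax7, Snai2, Twist1 and Ets1. They were chosen by symbol, by a rule that uses no measured values, but with earlier results of these data known. All 10 were found among the 54532 gene IDs listed in each table. The mice lacked Cmtr2, an enzyme that methylates the ribose of the second transcribed nucleotide of mRNA, next to the cap. Constitutive Cmtr2 knockout (KO) embryos were set against wild-type (WT) littermate embryos at embryonic day (E) 8.5 and E9.5, with 4 KO and 4 WT libraries of embryos at each stage. Yolk sacs at E9.5 were sequenced in the same numbers, so the series holds 24 libraries. Per the series' own description, KO embryos looked like their littermates at E8.5 and were smaller at E9.5, and the samples came from 2 litters at E8.5 and 4 litters at E9.5. The sources used here do not give the litter of a library, the mouse strain, the part of Cmtr2 that the allele removes, or whether a library holds 1 embryo or a pool.

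Signals of the BMP, WNT and FGF families act on the border of the neural plate, where AP-2 factors (Tfap2a, Tfap2b) and paired-box factors (Pax3, Pax7) switch on. These in turn act on specifiers such as Foxd3, Snai2, Ets1 and the SoxE genes Sox9 and Sox10, which accompany the change of the cells from an epithelium to migrating mesenchyme. In mouse embryos, crest of the head forms bone, cartilage and connective tissue of the face, and crest of the trunk forms sensory and autonomic neurons, glia and pigment cells. Most of the 10 genes are also used outside the crest: Pax3 and Pax7 in the neural tube and somites, Ets1 in endothelium, Twist1 in mesoderm, and the AP-2 genes in surface ectoderm. In bulk libraries such as these, fewer cells of a type and less RNA per cell cannot be told apart.

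Values are FPKM, that is, fragments per gene length and sequencing depth, scaled by 1 factor per library. The libraries held 15555393 to 23376506 fragments. Cmtr2 itself had 0.782, 0.868, 0.694 and 0.492 FPKM in E8.5 KO embryos, against 6.51, 6.46, 6.19 and 5.64 FPKM in WT embryos. At E9.5 it had 0.591, 0.418, 0.693 and 0.458 FPKM in KO embryos, against 3.82, 3.97, 3.61 and 2.65 FPKM in WT embryos. The exact two-sided permutation p was 0.0286 at each stage, the smallest that 4 against 4 libraries allow. Titles and genotype tags contradicted each other in 24 of 24 samples, and libraries were grouped by title, with which the level of Cmtr2 went. Region genes set some E9.5 embryo libraries apart. T, a gene of the tail bud, had 8.87, 0.991, 10.1 and 10.4 FPKM in KO embryos, against 0.511, 14.3, 1.23 and 18.6 FPKM in WT embryos. Myl7, a heart muscle gene, had 71.4, 307, 223 and 401 FPKM in KO embryos, against 2.58, 207, 5.17 and 223 FPKM in WT embryos. Otx2, a gene of the forebrain and midbrain, had 6.97, 9.13, 7.48 and 6.95 FPKM in KO embryos, against 16.5, 8.67, 8.86 and 3.97 FPKM in WT embryos. KO replicate 2 and WT replicates 1 and 3 were thus low in T, and both of these WT libraries were low in Myl7. A list of 10 tail and trunk genes, T included, summed to 7.41 FPKM in WT replicate 1 and 89.3 FPKM in WT replicate 3. It summed to 64.7 FPKM in KO replicate 2 and 66.2 FPKM in WT replicate 2. Of the libraries low in T, WT replicate 1 alone was thus low in the whole list. Results at E9.5 were also computed without the 3 libraries low in T, which left WT replicates 2 and 4 as the only WT libraries.

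Sequences upstream of a RefSeq start were at hand for 5 of the 10 genes, from RefSeq on GRCm38.p6: Foxd3, Tfap2a, Tfap2b, Pax7 and Twist1. The 250 bases before the RefSeq start of Foxd3, Tfap2b and Twist1 are printed because these windows hold no annotated exon. The Foxd3 and Twist1 windows end where the annotated gene begins, whereas the Tfap2b window lies inside the annotated span of the gene, downstream of its first start. Foxd3 and Tfap2b varied widely between libraries at E8.5, and Twist1 was the most abundant of the 10, with an ordinary spread. Capitals mark matches, on either strand, to an E-box (CANNTG, the core bound by Twist and Snail factors), to an AP-2 motif (GCCNNNGGC) or to a short SOX core (ACAAT).
Foxd3, chr4:99656049-99656298, plus strand: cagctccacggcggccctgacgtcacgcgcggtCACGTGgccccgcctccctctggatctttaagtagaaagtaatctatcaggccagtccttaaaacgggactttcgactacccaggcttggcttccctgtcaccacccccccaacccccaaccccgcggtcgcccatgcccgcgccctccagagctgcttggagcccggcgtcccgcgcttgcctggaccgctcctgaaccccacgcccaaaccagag
Tfap2b, chr1:19211804-19212053, plus strand: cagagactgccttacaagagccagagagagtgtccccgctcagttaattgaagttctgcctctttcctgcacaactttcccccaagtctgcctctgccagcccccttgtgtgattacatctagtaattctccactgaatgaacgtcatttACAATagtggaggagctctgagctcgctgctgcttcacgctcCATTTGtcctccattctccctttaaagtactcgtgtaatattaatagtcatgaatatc
Twist1, chr12:33957421-33957670, plus strand: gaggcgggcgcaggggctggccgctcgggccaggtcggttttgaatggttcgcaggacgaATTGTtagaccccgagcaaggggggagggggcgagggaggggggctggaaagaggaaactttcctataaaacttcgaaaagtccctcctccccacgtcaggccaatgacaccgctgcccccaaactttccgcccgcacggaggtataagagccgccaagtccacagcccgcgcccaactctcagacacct
The Foxd3 window held 1 E-box, the Tfap2b window 1 E-box and 1 SOX core, and the Twist1 window 1 SOX core. Of all 32851 upstream windows of this length in the table, 66.2 percent held an E-box, 27.7 percent a SOX core and 13.7 percent the AP-2 motif. No match to the AP-2 motif was found in the 3 windows, and the matches did not overlap one another. These are matches of letters only.

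In E8.5 embryos, no crest gene was called different between KO and WT, and 6 of the 9 tested genes varied widely between libraries of 1 genotype. Of the 13058 genes tested with limma, 125 had a p under 0.05 after Benjamini-Hochberg adjustment over all of them and were called, which is 0.957 percent. Among the crest genes, 9 passed the filter, which asked for 4 or more of the 8 libraries at an FPKM of 1 or above, and 0 of 9 were called. Ets1 alone of the 9 had an unadjusted p under 0.05, as did 3237 of all 13058 tested genes. The method voom on recovered fragments also called 0 of 9. The median log2 fold change of the 9 was -0.15, against 0.01 over all tested genes. Of the 9, 8 lay below 0, as did 49.2 percent of all tested genes. Sox9 and Foxd3, both close to 0, changed sign under 6 and 5 alternatives. A joint direction of the 9 was not tested. All fold changes are KO minus WT on a scale of log2(FPKM + 0.5), which understates changes of low genes.

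**Figure D1:**
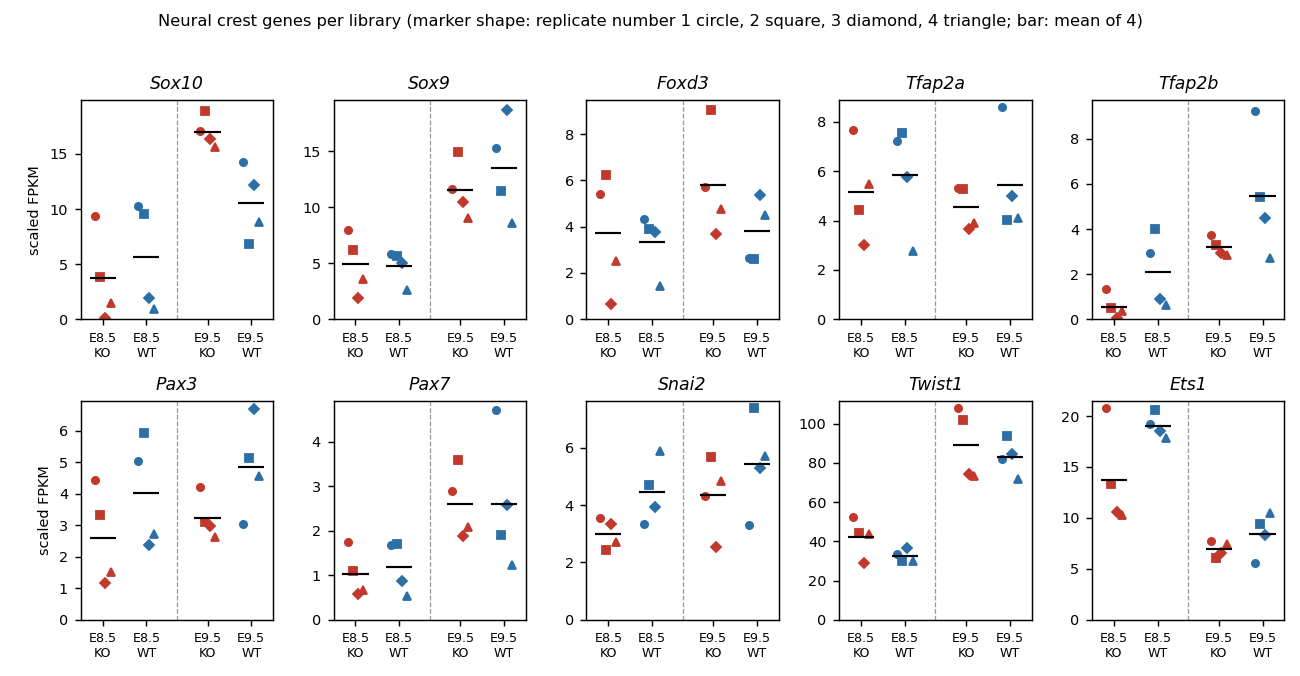
Scaled FPKM (vertical axes) of the 10 crest genes in each embryo library, with KO left of WT at E8.5 and at E9.5, marker shapes for replicate numbers and bars for the mean of 4 libraries. E8.5 and E9.5 values rest on different gene lengths for most genes and are to be read within a stage; Sox10 at E9.5 is the one panel where KO and WT do not overlap at a stage.

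Sox10, the SoxE factor of migrating crest and of its glial and pigment derivatives (chromosome 15, 79154908 to 79165240, minus strand, as all positions here on GRCm38), showed the widest range at E8.5. It had 9.41, 3.86, 0.143 and 1.52 FPKM in KO embryos, against 10.3, 9.52, 1.90 and 0.916 FPKM in WT embryos. The value of KO replicate 3 rested on 5 fragments, and that of WT replicate 2 on 403. Replicates 1 and 2 were high and replicates 3 and 4 low in both genotypes, and the groups overlapped. The log2 fold change was -0.68 (SE 0.84, limma adjusted p = 0.636), with a 95 percent interval of -2.52 to 1.17.

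Sox9, the SoxE factor that acts earlier in crest and later in cartilage (chromosome 11, 112782224 to 112787760, plus strand), had 8.01, 6.22, 1.87 and 3.57 FPKM in KO embryos, against 5.79, 5.62, 4.99 and 2.63 FPKM in WT embryos. The KO libraries reached both above and below the WT libraries, and the log2 fold change was -0.07 (SE 0.39, adjusted p = 0.931). Foxd3, a forkhead factor that keeps crest progenitors undifferentiated (chromosome 4, 99656299 to 99658622, plus strand), had 5.40, 6.25, 0.677 and 2.52 FPKM in KO embryos, against 4.33, 3.90, 3.78 and 1.42 FPKM in WT embryos. Its log2 fold change was -0.08 (SE 0.51, adjusted p = 0.940). KO replicate 3 was the lowest library for both genes.

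Of the border genes, Tfap2a (chromosome 13, 40715302 to 40738376, minus strand) had 7.66, 4.44, 3.02 and 5.49 FPKM in KO embryos, against 7.23, 7.57, 5.78 and 2.76 FPKM in WT embryos (log2 fold change -0.15, SE 0.33, adjusted p = 0.809). Its span holds 3 annotated antisense genes, whose reads cannot be told apart because the sources used here do not say whether counting used strand; 1 antisense gene overlaps Ets1 likewise. Tfap2b (chromosome 1, 19208914 to 19238576, plus strand) was the lowest of the 10 in KO, with 1.34, 0.495, 0.0436 and 0.354 FPKM in KO embryos, against 2.94, 3.997, 0.884 and 0.628 FPKM in WT embryos. KO replicates 2, 3 and 4 lay below all WT libraries, KO replicate 1 lay within their range, and the gene did not pass the filter. With the filter lowered to an FPKM of 0.1, the log2 fold change of Tfap2b was -1.21 (SE 0.48, adjusted p = 0.200).

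Pax3 (chromosome 1, 78101267 to 78197134, minus strand) had 4.42, 3.32, 1.17 and 1.503 FPKM in KO embryos, against 5.05, 5.94, 2.39 and 2.71 FPKM in WT embryos. The groups overlapped, with the lowest values in KO replicates 3 and 4, and the log2 fold change was -0.60 (SE 0.39, adjusted p = 0.350). Pax7 (chromosome 4, 139737062 to 139833528, minus strand) had 1.75, 1.10, 0.568 and 0.675 FPKM in KO embryos, against 1.68, 1.69, 0.864 and 0.532 FPKM in WT embryos (-0.14, SE 0.34, adjusted p = 0.817).

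Snai2, a zinc finger repressor tied to the epithelial-mesenchymal transition in chick embryos (chromosome 16, 14705852 to 14709385, plus strand), had 3.55, 2.41, 3.35 and 2.70 FPKM in KO embryos, against 3.33, 4.69, 3.91 and 5.87 FPKM in WT embryos (-0.49, SE 0.22, adjusted p = 0.208). Ets1, an ETS factor of cranial crest and of endothelium (chromosome 9, 32636221 to 32757820, plus strand), had 20.8, 13.3, 10.6 and 10.3 FPKM in KO embryos, against 19.3, 20.6, 18.6 and 17.8 FPKM in WT embryos. KO replicates 2, 3 and 4 lay below all WT libraries, and KO replicate 1 above them. The log2 fold change was -0.51 (SE 0.22, adjusted p = 0.173), with an interval of -0.99 to -0.04. The 10 endothelial markers had a median of -0.18, summed to 78.6 to 129 FPKM in KO embryos and 87.5 to 135 FPKM in WT embryos, and their part in the Ets1 values was not tested.

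Twist1, a basic helix-loop-helix factor of crest mesenchyme of the head and of mesoderm (chromosome 12, 33957671 to 33959829, plus strand), was by far the most abundant of the 10 and went the other way. It had 52.4, 44.4, 28.8 and 43.6 FPKM in KO embryos, against 33.5, 29.96, 36.7 and 30.2 FPKM in WT embryos. KO replicates 1, 2 and 4 were above all WT libraries and KO replicate 3 below them, and the log2 fold change was 0.35 (SE 0.19, adjusted p = 0.269).

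**Figure D2:**
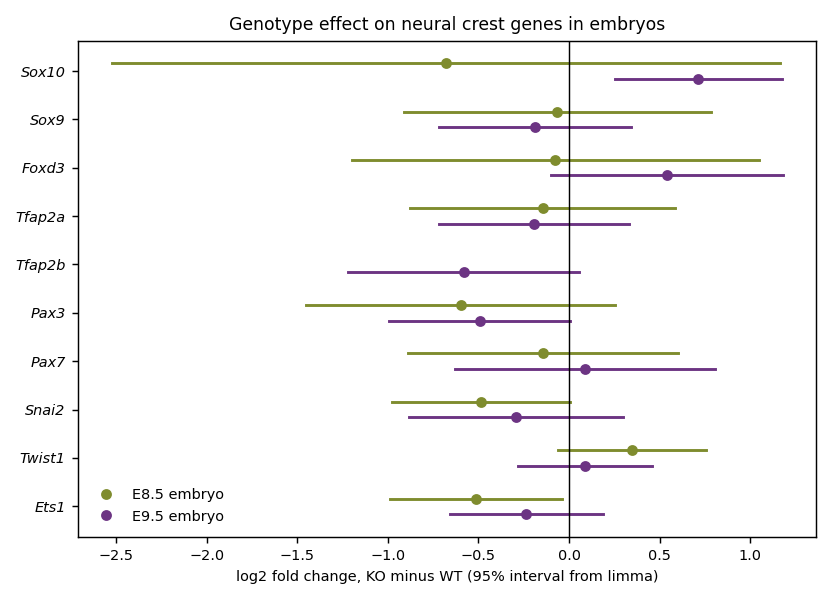
Log2 fold change, KO minus WT, of each tested crest gene (points) with its 95 percent interval from limma (lines), with E8.5 and E9.5 embryos in separate colours; Tfap2b was not tested at E8.5. The Sox10 interval at E8.5 runs from -2.52 to 1.17, and at E9.5 from 0.25 to 1.17.

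The spread between E8.5 libraries of 1 genotype differed among the crest genes. The within-group SD of log2(FPKM + 0.5) was 1.58 for Sox10, larger than that of 99.7 percent of the tested genes, and 0.92 for Foxd3, larger than 97.5 percent. Sox9 (0.67), Pax3 (0.66), Tfap2a (0.56) and Pax7 (0.51) were each above 86.1 percent or more of the tested genes, whose median SD was 0.29. Twist1 (0.27), Snai2 (0.27) and Ets1 (0.33) were ordinary in this respect. For Sox10, Sox9, Foxd3, Pax3 and Pax7, all 4 libraries of replicates 1 and 2, of both genotypes, lay above all 4 libraries of replicates 3 and 4. KO replicate 3 was the lowest KO library for 8 of the 10 genes, and WT replicate 4 the lowest WT library for 7.

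Myl7 had 187, 139, 38.6 and 121 FPKM in E8.5 KO embryos, against 222, 124, 107 and 61.1 FPKM in WT embryos, so KO replicate 3 and WT replicate 4 were the lowest libraries of this heart gene too. The samples came from 2 litters, and litter and replicate number cannot be told apart here. Between replicates 1 and 2 alone, the KO minus WT difference of Sox10 was -0.66 on the log2 scale, and between replicates 3 and 4 alone it was -0.70. Foxd3 differed by 0.45 in the first pair of numbers and by -0.61 in the second, and Sox9 by 0.29 and -0.42. Pax3 differed by -0.46 and -0.74, Snai2 by -0.38 and -0.60, and Ets1 by -0.25 and -0.77. With these pairs of replicate numbers as a term in the limma fit, 1652 of all tested genes were called, and 0 of the 9 crest genes. Pax3 (adjusted p = 0.0645), Ets1 (adjusted p = 0.074) and Snai2 (adjusted p = 0.143) had an unadjusted p under 0.05 in this fit. How many of all tested genes were under that cut in this fit is not given here. In the limma fit without the term they were 3237 of 13058.

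**Figure D3:**
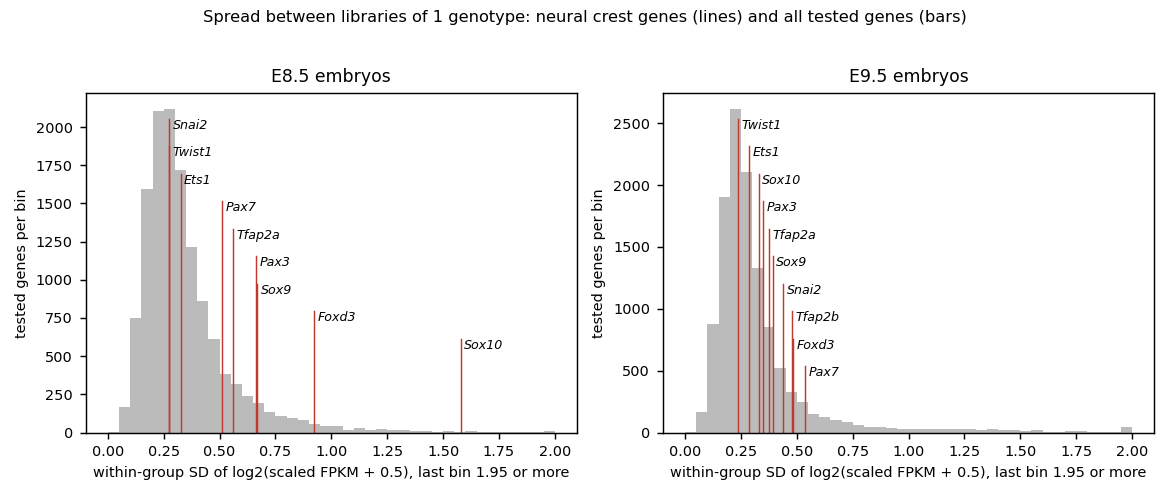
Within-group SD of log2(scaled FPKM + 0.5) on the horizontal axes, with bars for the number of tested genes per bin and red lines for the crest genes, at E8.5 (left) and E9.5 (right). Sox10 lies at 1.58 at E8.5 and at 0.33 at E9.5, where the median of all tested genes is 0.26.

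In E9.5 embryos, Sox10 rose in KO, by 0.71 on the log2 scale, and no other crest gene was called. At this stage 1637 of 12027 tested genes were called, which is 13.6 percent, with 884 higher in KO (7.35 percent) and 753 lower (6.26 percent). When FPKM were rescaled to a fixed total per library (TPM), the split was 132 higher and 3113 lower, with the median of all genes shifted to -0.34. All 10 crest genes were tested, 1 was called higher and 0 lower, and their median log2 fold change was -0.19, against 0.01 over all genes. A call in 1 of 10 genes is near the background share.

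Sox10 had 17.1, 18.9, 16.4 and 15.6 FPKM in E9.5 KO embryos, against 14.3, 6.84, 12.2 and 8.84 FPKM in WT embryos. Every KO library lay above every WT library. In one direction or the other, the groups did not overlap for 22.2 percent of all tested genes. The mean was 17.0 ± 1.43 FPKM in KO and 10.5 ± 3.32 FPKM in WT (SD, n = 4 each), and the log2 fold change was 0.71 (SE 0.21, limma adjusted p = 0.0483, interval 0.25 to 1.17). The call sat close to the threshold. It held in 6 of 22 alternatives, by the least margin with a pseudocount of 0.1, among which the adjusted p ran from 0.013 to 0.354 and the log2 fold change from 0.37 to 1.01. Leaving out 1 library at a time, the call held only without WT replicate 1 (0.87, adjusted p = 0.0196), and it was weakest without WT replicate 2 (0.52, adjusted p = 0.124). Without the 3 libraries low in T, the difference was 1.01 (adjusted p = 0.0642). Under TPM it was 0.37, which is 0.71 above the shifted median of all genes.

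The other specifiers overlapped between the genotypes at E9.5. Foxd3 had 5.72, 9.04, 3.68 and 4.75 FPKM in KO embryos, against 2.67, 2.62, 5.38 and 4.51 FPKM in WT embryos (0.54, SE 0.29, adjusted p = 0.203). The KO values were higher in replicates 1 and 2, by 1.29 on the log2 scale, and lower in replicates 3 and 4, at -0.21. Sox9 had 11.6, 14.9, 10.5 and 9.02 FPKM in KO embryos, against 15.3, 11.4, 18.7 and 8.58 FPKM in WT embryos (-0.19, SE 0.24, adjusted p = 0.599). Sox9 turned to 0.04 without the 3 libraries low in T. Snai2 had 4.32, 5.67, 2.53 and 4.83 FPKM in KO embryos, against 3.32, 7.39, 5.30 and 5.70 FPKM in WT embryos (-0.29, SE 0.27, adjusted p = 0.449). Ets1 had 7.74, 6.06, 6.51 and 7.43 FPKM in KO embryos, against 5.55, 9.40, 8.35 and 10.4 FPKM in WT embryos (-0.24, SE 0.19, adjusted p = 0.390). For Snai2 and Ets1, WT replicate 1 was the lowest WT library.

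Among the border genes, Tfap2b and Pax3 had the largest differences below 0. Tfap2b had 3.75, 3.28, 2.93 and 2.87 FPKM in KO embryos, against 9.25, 5.41, 4.50 and 2.74 FPKM in WT embryos (-0.58, SE 0.29, adjusted p = 0.171). The KO libraries were alike and the WT libraries spread widely, with WT replicate 1, the library highest in Otx2, at the top. Without the 3 libraries low in T the difference of Tfap2b was -0.27 (adjusted p = 0.527), and under TPM it was -0.96 (adjusted p = 0.0384), or -0.62 against the median of all genes. Pax3 had 4.21, 3.09, 2.99 and 2.63 FPKM in KO embryos, against 3.03, 5.13, 6.68 and 4.58 FPKM in WT embryos (-0.49, SE 0.22, adjusted p = 0.145). Here WT replicate 1 was the lowest WT library, and without it Pax3 was called lower in KO (-0.68, adjusted p = 0.0359). Pax3 was also called under TPM (-0.88, adjusted p = 0.0348) and with array weights (-0.58, adjusted p = 0.0438).

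Tfap2a had 5.33, 5.28, 3.65 and 3.89 FPKM in E9.5 KO embryos, against 8.58, 4.03, 4.99 and 4.12 FPKM in WT embryos (-0.19, SE 0.24, adjusted p = 0.585). WT replicate 1 was again the highest library, and the difference turned to 0.03 without it. Pax7 had 2.90, 3.58, 1.87 and 2.07 FPKM in KO embryos, against 4.71, 1.89, 2.58 and 1.24 FPKM in WT embryos (0.09, SE 0.32, adjusted p = 0.868). Twist1 had 108, 102, 74.2 and 73.3 FPKM in KO embryos, against 82.3, 93.9, 84.6 and 71.8 FPKM in WT embryos (0.09, SE 0.17, adjusted p = 0.736). The signs of Pax7 and Twist1 turned under TPM, and that of Twist1 also under quantile normalization and with a gene length trend removed.

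**Figure D4:**
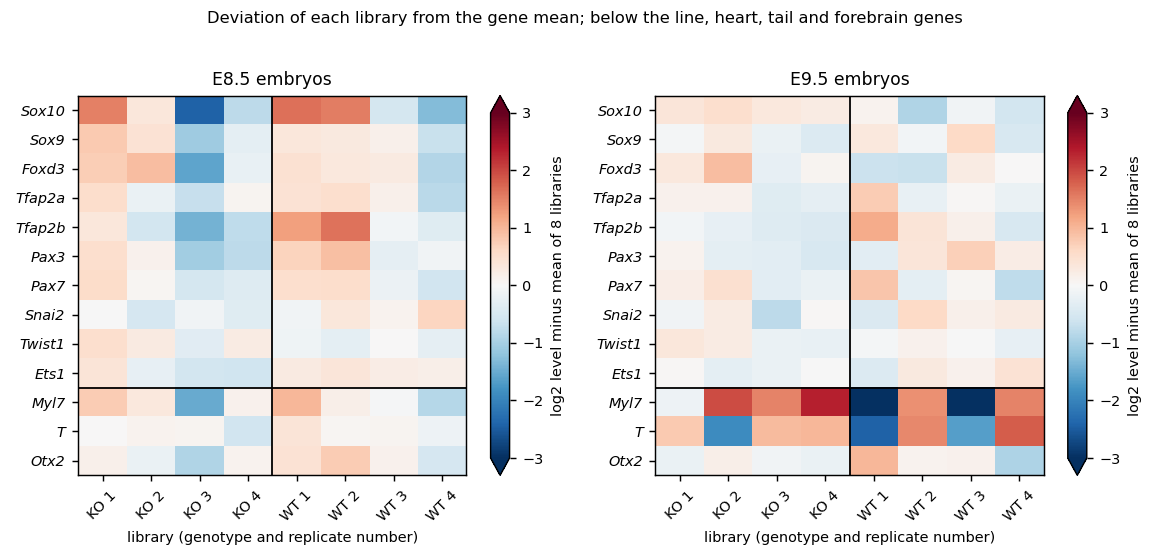
Log2(scaled FPKM + 0.5) of each library minus the mean of 8 libraries (colour, which stops at 3 in both directions), for the 10 crest genes and, below the line, Myl7, T and Otx2, with KO columns left of WT columns. At E8.5 KO replicate 3 is low in most rows, Myl7 included; at E9.5 the libraries low in T are KO replicate 2 and WT replicates 1 and 3.

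The within-group SD of Sox10 at E9.5 was 0.33 on the log2 scale, above that of 70.7 percent of tested genes. Sox9, Foxd3, Tfap2a, Pax3, Twist1 and Ets1 also had a smaller SD at E9.5 than at E8.5, and Pax7 and Snai2 a larger one. Pax7, at 0.54, was the most variable of the 10 and exceeded 90.7 percent of tested genes. The levels of neighbouring genes in order of abundance overlapped in most places. Among KO embryos at E9.5, Twist1 (89.3 ± 18.1 FPKM), Sox10 (17.0 ± 1.43), Sox9 (11.5 ± 2.49) and Ets1 (6.93 ± 0.781) followed one another without overlap of libraries, and from Ets1 down to Pax7 (2.61 ± 0.789) each gene overlapped the next (SD, n = 4). Among WT embryos, Twist1 (83.1 ± 9.06 FPKM) stood alone, and Sox9 (13.5 ± 4.43) came ahead of Sox10 (10.5 ± 3.32), with overlap.

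The ratio of paralogues within a library needs no scaling between libraries. That of Sox10 to Sox9 was 1.47, 1.27, 1.56 and 1.73 in E9.5 KO embryos, against 0.933, 0.600, 0.652 and 1.03 in WT embryos, with no overlap. Sox10 alone did not overlap either, as was so for 22.2 percent of tested genes, and the share among ratios was not computed. At E8.5 the ratio of Sox10 to Sox9 was 1.17, 0.621, 0.0767 and 0.425 in KO embryos, against 1.78, 1.70, 0.382 and 0.349 in WT embryos, with wide overlap. The ratio of Tfap2b to Tfap2a was 0.174, 0.111, 0.0144 and 0.0645 in E8.5 KO embryos, against 0.406, 0.528, 0.153 and 0.228 in WT embryos. KO replicate 1 alone reached into the WT range. At E9.5 the ratio was 0.621 to 0.802 in KO embryos and 0.664 to 1.34 in WT embryos. The ratio of Pax7 to Pax3 was 0.331 to 0.485 in KO and 0.196 to 0.362 in WT embryos at E8.5, and 0.626 to 1.16 in KO and 0.270 to 1.55 in WT embryos at E9.5. These 3 pairs of paralogues were compared after their values had been seen, and the ratios are given with no test.

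The genotype effect was not shown to differ between the stages for any crest gene. In a joint fit of the 16 embryo libraries, 6 of 11595 genes were called for a stage difference, which is 0.0517 percent, and 0 of the 9 crest genes tested in both tables were called by limma. None had an unadjusted p under 0.05, and their adjusted p ran from 0.903 to 0.991. For Sox10 the effect at E9.5 minus that at E8.5 was 1.39 (SE 0.97, adjusted p = 0.903), with an interval of -0.66 to 3.44. The tables were normalized separately, so levels at the stages can only be set side by side, here with each gene's fragments divided by the same length, the union of its exons. On that scale Sox10 averaged 17.0 FPKM at E9.5 and 2.24 FPKM at E8.5 in KO embryos, a ratio of 7.57, and 10.5 and 3.40 FPKM in WT embryos, a ratio of 3.09. Tfap2b, with ratios of 15.2 in KO and 6.83 in WT, differed most between the stages. The ratios of the other 8 genes ran from 1.44 to 3.94 in KO and from 1.13 to 3.38 in WT. On that scale the means of all 10 were thus higher at E9.5 in both genotypes, but no factor linked the tables, and this was not tested. For Foxd3 the WT libraries overlapped between the stages, at 1.42 to 4.33 FPKM at E8.5 and 2.62 to 5.38 FPKM at E9.5.

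E9.5 yolk sacs, a tissue of extraembryonic mesoderm and endoderm with no neural crest, served as a comparison. They had at most 0.0767 FPKM of T, 1.21 FPKM of Myl7 and 0.0536 FPKM of Otx2 in any library. Cmtr2 averaged 0.198 ± 0.0967 FPKM in KO yolk sacs and 3.59 ± 0.343 FPKM in WT yolk sacs (SD, n = 4 each). Sox10, Foxd3, Tfap2b and Pax7 had 0 fragments in all 8 libraries, which allows at most 0.0614, 0.0806, 0.0296 and 0.0320 FPKM, in that order, at 3 fragments in the library where 1 fragment weighs most. Sox9 had 0.239 to 0.689 FPKM in KO and 0.198 to 0.570 FPKM in WT, Tfap2a at most 0.157 in KO and 0.0980 in WT, and Pax3 at most 0.121 in KO and 0.0473 in WT. The genes shared with mesoderm and endothelium were present. Of 12010 tested genes 342 were called, which is 2.85 percent, and 0 of the 3 crest genes tested were called by limma or by voom. Of these 3, 2 had an unadjusted p under 0.05, as did 2302 of all 12010 tested genes.

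Twist1 had 12.6, 11.5, 15.3 and 16.5 FPKM in KO yolk sacs, against 8.73, 7.44, 13.3 and 8.92 FPKM in WT yolk sacs. Only WT replicate 3 reached into the KO range, and the log2 fold change was 0.54 (SE 0.18, adjusted p = 0.143). Libraries with the same number deviated together in this tissue, though single pairs were not shown. With the replicate number as a block in limma, Twist1 was called higher (0.54, SE 0.12, adjusted p = 0.0486). It was also called without WT replicate 3 (0.70, adjusted p = 0.0441). Ets1 had 5.64, 5.43, 4.87 and 5.52 FPKM in KO yolk sacs, against 7.36, 5.88, 6.60 and 6.81 FPKM in WT yolk sacs (-0.29, SE 0.10, adjusted p = 0.154). The groups of Ets1 did not overlap, as was so for 12.5 percent of tested genes. Snai2 differed by -0.01 (SE 0.18, adjusted p = 0.980).

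Genes around the 10 were read from 5 lists of the crest pathway, 98 genes in all. At E8.5, 0 of the 75 tested were called by limma, and the medians of the lists ran from -0.26 to 0.13. At E9.5, 10 of the 79 tested were called, 3 higher and 7 lower, which is 12.7 percent and near the background of 13.6 percent. Of 18 border and inducing genes, Tfap2c, another AP-2 factor, rose (7.37 ± 1.17 FPKM in KO and 4.18 ± 1.80 FPKM in WT, log2 fold change 0.81, adjusted p = 0.0478; SD, n = 4 each, here and below). The median of the 18 was 0.18.

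Of 19 further specifiers and genes of the epithelial-mesenchymal transition, Id1, a target of BMP signalling that blocks basic helix-loop-helix factors, rose (141 ± 16.8 FPKM in KO and 91.4 ± 16.8 FPKM in WT, 0.64, adjusted p = 0.0326). Zeb1, a repressor of epithelial genes, fell (3.54 ± 0.473 FPKM in KO and 5.87 ± 0.606 FPKM in WT, -0.66, adjusted p = 0.0254), and so did Sox6, a SoxD factor (0.857 ± 0.0415 FPKM in KO and 1.68 ± 0.227 FPKM in WT, -0.68, adjusted p = 0.0366). Their median was -0.08. Of 15 receptors and guidance genes, Ret, the receptor of GDNF family ligands on enteric crest cells, had the largest rise (6.39 ± 1.18 FPKM in KO and 2.21 ± 1.82 FPKM in WT, 1.58, adjusted p = 0.0375). Epha4, an ephrin receptor, fell (3.87 ± 0.353 FPKM in KO and 6.01 ± 1.10 FPKM in WT, -0.56, adjusted p = 0.0445). Of 15 genes of cranial and pharyngeal arch mesenchyme, Prrx1, a homeobox gene of mesenchyme, was the one called (3.83 ± 1.06 FPKM in KO and 6.92 ± 1.90 FPKM in WT, -0.77, adjusted p = 0.0465), and the median was 0.05.

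Genes of crest derivatives stood lowest of the 5 lists at E9.5. Of 21 listed, 12 were tested, 2 fell, 0 rose, and 11 of the 12 lay below 0, with a median of -0.64 against 0.01 over all genes, of which 49.3 percent lay below 0. Fabp7, a fatty acid binding protein of radial glia and early crest glia, fell most (3.16 ± 0.431 FPKM in KO and 13.1 ± 5.76 FPKM in WT, -1.76, SE 0.33, adjusted p = 0.0193). Eya1, a transcriptional cofactor in placodes and ganglia, fell by 0.76 on the log2 scale (2.26 ± 0.418 FPKM in KO and 4.19 ± 0.872 FPKM in WT, adjusted p = 0.0318). Both genes are also active in neural tube or placodes. The summed level of the 21 genes was 27.7 to 43.4 FPKM in KO embryos and 38.7 to 82.8 FPKM in WT embryos, which overlapped through WT replicate 4. Without the 3 libraries low in T the median was -0.56, with 0 of 12 called and 36 called among all tested genes.

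In the 7 lists of other tissues and regions, 10 of the 73 genes tested at E9.5 were called, 5 higher and 5 lower, which is 13.7 percent beside 13.6 percent of all genes. Of 12 neural tube genes, 3 fell and 0 rose, against 6.26 percent of all genes called lower, and the median was -0.52. Dbx1, of ventral and dorsal progenitor domains, had 1.63 ± 0.699 FPKM in KO and 6.47 ± 3.05 FPKM in WT (-1.66, adjusted p = 0.0247), Nes, the intermediate filament of progenitors, 17.9 ± 5.80 FPKM in KO and 34.2 ± 8.06 FPKM in WT (-0.94, adjusted p = 0.0334), and Pax6 1.36 ± 0.341 FPKM in KO and 3.44 ± 1.49 FPKM in WT (-1.01, adjusted p = 0.0492). The list summed to 156 to 205 FPKM in KO and 168 to 360 FPKM in WT, and its part in the values of Pax3, Pax7 and Sox9 was not tested.

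Of 12 surface ectoderm and placode genes, 3 rose and 0 fell, against 7.35 percent of all genes called higher. The median was 0.37, and 3 of the 12 lay below 0. The keratins Krt8 (251 ± 90.2 FPKM in KO and 104 ± 38.0 FPKM in WT, 1.27, adjusted p = 0.0329) and Krt18 (191 ± 56.4 FPKM in KO and 81.3 ± 19.2 FPKM in WT, 1.21, adjusted p = 0.0243) rose together with Cldn6, a tight junction gene (78.3 ± 28.5 FPKM in KO and 42.1 ± 9.40 FPKM in WT, 0.85, adjusted p = 0.0476). The list, to whose sum these 3 genes gave most, summed to 420 to 859 FPKM in KO and 197 to 376 FPKM in WT. At E8.5 it summed to 1166 to 1983 FPKM in KO and 928 to 1026 FPKM in WT, with 0 of 11 genes called and a median of 0.30. In E9.5 yolk sacs the list summed to 1291 to 1650 FPKM in KO and 1187 to 1392 FPKM in WT. Its sum is thus not particular to surface ectoderm. Surface ectoderm also uses Tfap2a and Tfap2b, whose differences at E9.5 were -0.19 and -0.58, and its part in their values was not tested.

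Of 9 somite genes, Meox2 fell (0.830 ± 0.587 FPKM in KO and 3.20 ± 1.31 FPKM in WT, -1.52, adjusted p = 0.0335), and of 10 endothelial genes Emcn fell (1.52 ± 0.267 FPKM in KO and 2.87 ± 0.597 FPKM in WT, -0.73, adjusted p = 0.0351), with list medians of -0.29 and -0.03. Of the region lists, Sp5 of the tail rose (16.7 ± 3.98 FPKM in KO and 8.10 ± 1.64 FPKM in WT, 1.00, adjusted p = 0.0213), En1 of the midbrain and hindbrain border rose (8.53 ± 2.62 FPKM in KO and 4.01 ± 1.94 FPKM in WT, 1.04, adjusted p = 0.0433), and 0 of 10 heart genes were called by limma, although their median was 1.81. Without the 3 libraries low in T the heart median was -0.45. Of the 20 list genes called at E9.5, 0 were called without these 3 libraries. In that fit 36 of all tested genes were called, against 1637 with every library. Each of the 20 kept its call in 1 to 4 of the 8 runs that left out 1 library. Those runs called 96 to 2737 genes in all, so the lost calls are not particular to the lists. None of the 20 changed sign under the 22 alternatives. In yolk sacs, 2 genes of the 12 lists were called, with Bmp7 lower in KO (7.74 ± 0.901 FPKM in KO and 15.1 ± 1.21 FPKM in WT, -0.92, adjusted p = 0.00391) and Esam higher (10.1 ± 1.25 FPKM in KO and 6.08 ± 1.07 FPKM in WT, 0.69, adjusted p = 0.0321).

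**Figure D5:**
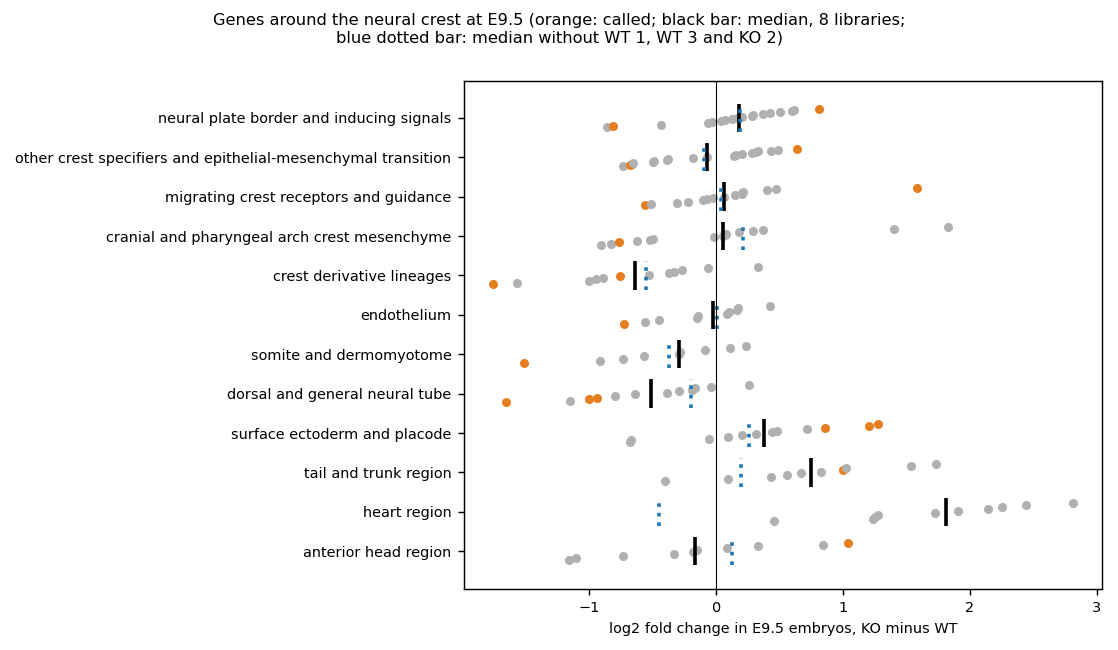
Log2 fold change at E9.5, KO minus WT, of each tested gene in 12 lists (points, orange where called), with black bars for the list medians over 8 libraries and blue dotted bars for the medians without WT replicates 1 and 3 and KO replicate 2. The crest derivative median is -0.64 with all libraries and -0.56 without the 3, and the heart median is 1.81 with all and -0.45 without them.

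The 5 genes whose levels followed Sox10 most closely over the 8 E9.5 embryo libraries were Tex261 (Pearson r = 0.987), Dhx34 (0.972), Hps1 (0.970), Unc119 (0.970) and Tmub1 (0.969). This describes 8 libraries that share the genotype difference. Within genotypes, after subtraction of the group means, r for Tex261 was 0.969 and for Unc119 0.922. Of the 5, Unc119 (0.65, adjusted p = 0.0423) and Tmub1 (0.62, adjusted p = 0.0403) were called higher in KO by limma, as were 7.35 percent of all 12027 tested genes. The 5 were picked from these by r with Sox10, itself higher in KO, in the same libraries. Their r and calls are therefore no independent evidence. None of the 5 is on the lists of crest genes used here.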

How the data were processed

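Total RNA was extracted with TRIzol and libraries were made with an NEBNext Ultra kit, per the labels' protocols. The authors deposited FPKM per gene, 1 table for each of 3 sets. The builds GRCm38 and mm10 and the tool DESeq2 are named, with no role, per the submitters' processing notes. The sources used here name no aligner or counter. The genes and lists were chosen with earlier results of these data known.

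Symbols, positions and lengths came from GENCODE M21, which held 54495 of 54532 IDs. Low FPKM values times gene length were whole multiples of 1 fragment, within 0.02, for 97.2 to 98.4 percent of values, using mean transcript lengths at E8.5 and unions of exons at E9.5. This gave 15555393 to 23376506 fragments per library. A count of 0 allows 3 fragments, and limits cover counting error only. Within a table, FPKM were divided by factors from the median of ratios. Genes at an FPKM of 1 or above in 4 or more of 8 libraries were tested on log2(FPKM + 0.5) with limma 3.58.1 in R 4.3.3 (empirical Bayes with trend, genotype as the only term, Benjamini-Hochberg over all tested genes, called under 0.05). The stage difference was an interaction in 1 fit of 16 libraries. The fit was tested on simulated data. Figures used Python 3.11.15 and matplotlib 3.10.9.

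Genes named were the 10 members, Cmtr2, T, Myl7 and Otx2, up to 3 risen and 3 fallen called genes of each list by size, and the 5 genes most correlated with Sox10 at E9.5. A gene that this rule names is not reported here, and it stays in the counts and medians. Alternatives changed the pseudocount, filter, scaling, trend, weights and terms, left out libraries, removed a length trend, or used voom on recovered fragments; their use on the lists was added after seeing the data. Same-numbered KO and WT yolk sacs deviated together, with correlations of 0.362, 0.304, 0.387 and 0.208 over tested genes, and the block treats these numbers as pairs. Differently numbered yolk sacs among replicates 1 and 2, or among replicates 3 and 4, also correlated, at 0.17 to 0.295. Single pairs and a split of replicates 1 and 2 from 3 and 4 therefore cannot be told apart. Replicates of a group correlated at 0.914 to 0.978. The labels do not say that replicates are separate animals, so the tests' p-values speak only of the spread among these libraries, which may be technical.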

Additional observations from a re-analysis of the deposited data

How the results depend on the processing

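At E8.5 and for the stage difference, 0 crest genes were called under every alternative run. At E9.5, the 1 call (Sox10) became 0 with a filter at an FPKM of 0.1, without a filter, with quantile normalization, without the mean-variance trend, with a term for replicates 1 and 2 against the others, with the length trend removed, and without the 3 libraries low in T. It became 2 under TPM (Tfap2b and Pax3) and with array weights (Sox10 and Pax3), and 0 to 2 when 1 library was left out. With the replicate number as a block, the adjusted p of Sox10 was 0.0868 and 0 crest genes were called at E9.5. Calls over all genes at E9.5 fell to 146 with the block, to 112 without a filter, to 36 without the 3 libraries low in T and to 755 with the length trend removed, against 1637, and numbered 3245 under TPM and 3498 with array weights. They ran from 96 without WT replicate 2 to 2737 without WT replicate 1. At E8.5, against 125 genes, 25 were called without a filter, 1261 with the block, 1652 with the term for replicates 1 and 2, and 34 to 79 when 1 library was left out. In yolk sacs, against 342, the counts were 146 without a filter, 659 with array weights, 638 with the block and 782 with the term, and were lowest without WT replicate 4 at 89. For the stage difference, against 6, they were 10 on FPKM as deposited or without E8.5 WT replicate 3, and 13 with array weights. The correlations of same-numbered embryos ran from -0.207 to 0.154 at E9.5 and from 0.065 to 0.382 at E8.5. At E8.5, KO replicate 3 correlated more with WT replicate 4 (0.57) than with WT replicate 3 (0.332). The block was not taken as a pairing in embryos. In yolk sacs the count of 0 became 1 (Twist1) with the block and with the same term, and was 0 to 1 when 1 library was left out. The block changed no other call of a crest gene.

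Small differences changed sign. At E8.5, Sox9 was 0.0195 and Foxd3 0.10 with array weights, and Sox9 was 0.0042 with the length trend removed. Leaving out 1 library gave ranges at E8.5 of -1.30 to 0.018 for Sox10, -0.34 to 0.28 for Sox9, -0.40 to 0.44 for Foxd3, -0.44 to 0.06 for Tfap2a and -0.36 to 0.0064 for Pax7. At E9.5, Sox9 was 0.0435 and Tfap2a 0.0364 without the 3 libraries low in T, Pax7 was -0.22 and Twist1 -0.27 under TPM, and Twist1 was -0.21 with quantile normalization and -0.16 with the length trend removed. Leaving out 1 library gave -0.31 to 0.0325 for Tfap2a, -0.16 to 0.37 for Pax7 and -0.0102 to 0.18 for Twist1, and in yolk sacs -0.16 to 0.10 for Snai2, which was 0.0068 with array weights. Under TPM, the Cmtr2 difference was -2.69 at E8.5 and -2.66 at E9.5, against -2.48 and -1.94.

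With 4 libraries a group, an effect of Sox10 at E8.5 anywhere from -2.52 to 1.17 is within its interval. Tfap2b and Sox10 at E8.5 rest on as few as 2 and 5 fragments.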
